A study of Homo sapiens with 2 samples.

Results

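Integrins, laminins and the proteins that tie them to actin were followed in HT-29, an established cell line from a human colorectal adenocarcinoma. The genes were listed by name, in 5 roles, and 27 of the 30 listed genes had at least 1 probe set naming that gene alone, out of 19775 genes with such a probe set. ITGB6, LAMA3 and FLNA had none and were not analysed here. Of the 2 samples, one received a small interfering RNA (siRNA) against IFITM1, an interferon-induced membrane protein (siIFITM1), and the other an siRNA against firefly luciferase, a gene these cells lack (siLuc). RNA was taken 72 h after transfection from both, and each sample was read on 1 array. With no replicates there was no spread to set a difference against, so differences are described without a test. The sequences of the siRNAs are not given in the sources used here.

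Integrins are pairs of an alpha and a beta chain in the cell membrane that hold a cell to collagen, fibronectin, laminin and other matrix proteins. Laminins are trimers of an alpha, a beta and a gamma chain that build the basement membrane beneath an epithelium such as that of the gut. Inside the cell, talin, vinculin, paxillin, focal adhesion kinase and their partners form the adhesion plaque, which alpha-actinin, myosin and tropomyosin connect to or support along actin filaments.

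Values are signals of the brightest probe set of a gene, in MAS5 intensity units, and log2 ratios are siIFITM1 over siLuc. A signal compares 1 gene between the arrays and does not rank genes by abundance. All 27 measured genes had a mean log2 signal over both arrays at or above the median of that mean over all probe sets (a signal of 57.4), the filter used for the 12225 genes they are compared with. Of the 27, 24 were at or above its 75th percentile (393) and are called brighter, and ITGA1, ITGA5 and TLN1 are called dimmer. Probe sets of 1 gene differed in log2 ratio with an SD of 0.193 where brighter and 0.496 where dimmer. This SD holds probe error and any difference between the transcripts that the probe sets read, within the 2 arrays. It covers no variation between cultures.

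IFITM1 had a signal of 237 with siIFITM1, against 640 with siLuc, which is 37.1% of the siLuc level. That probe set has an ID ending in _s_at or _x_at, endings that mark probes shared between transcripts. Of 10 markers of intestinal epithelium 8 passed the filter, all of them brighter, with a median log2 ratio of 0.0036. CDX1 and CDX2 did not pass. Fibroblast, endothelial and blood cell markers passed in 3 of 8, 1 of 5 and 3 of 5 measured cases, none of them brighter. The blood cell list held leukocyte genes and the haemoglobin gene HBB, which passed at 141 with siIFITM1 and 93.1 with siLuc. Summed over all measured markers, the signals of the 3 lists were 776, 218 and 485 with siIFITM1, against 751, 237 and 491 with siLuc. Median log2 ratios of the markers that passed were -0.49, -0.24 and -0.30. The fibroblast markers that passed were LUM (1.54), COL1A1 (-0.49) and DCN (-0.51). The part of these other cell markers in the results was not tested.

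No integrin, laminin or adhesion gene of the list was 2-fold apart between the arrays in either direction. Over all genes past the filter, 1.01% were at least 2-fold higher and 2.01% at least 2-fold lower with siIFITM1. At 1.5-fold, CCN1, ITGA2 and ITGB8 were higher and ITGA1 was lower, and the other 23 genes were closer to 1. The 3 higher genes were all brighter, where 1.86% of all genes were at least 1.5-fold higher, while over all genes past the filter that share was 4.18%. The lower gene was dimmer, a class in which 17.1% of genes were at least 1.5-fold lower, against 7.34% of all genes past the filter. The median log2 ratio of the 27 genes was -0.013, with 13 above 0, and that of all genes past the filter was -0.018, with 47.4% above 0. In bulk RNA, fewer cells that express a gene and less of its RNA per cell cannot be told apart.

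**Figure D1:**
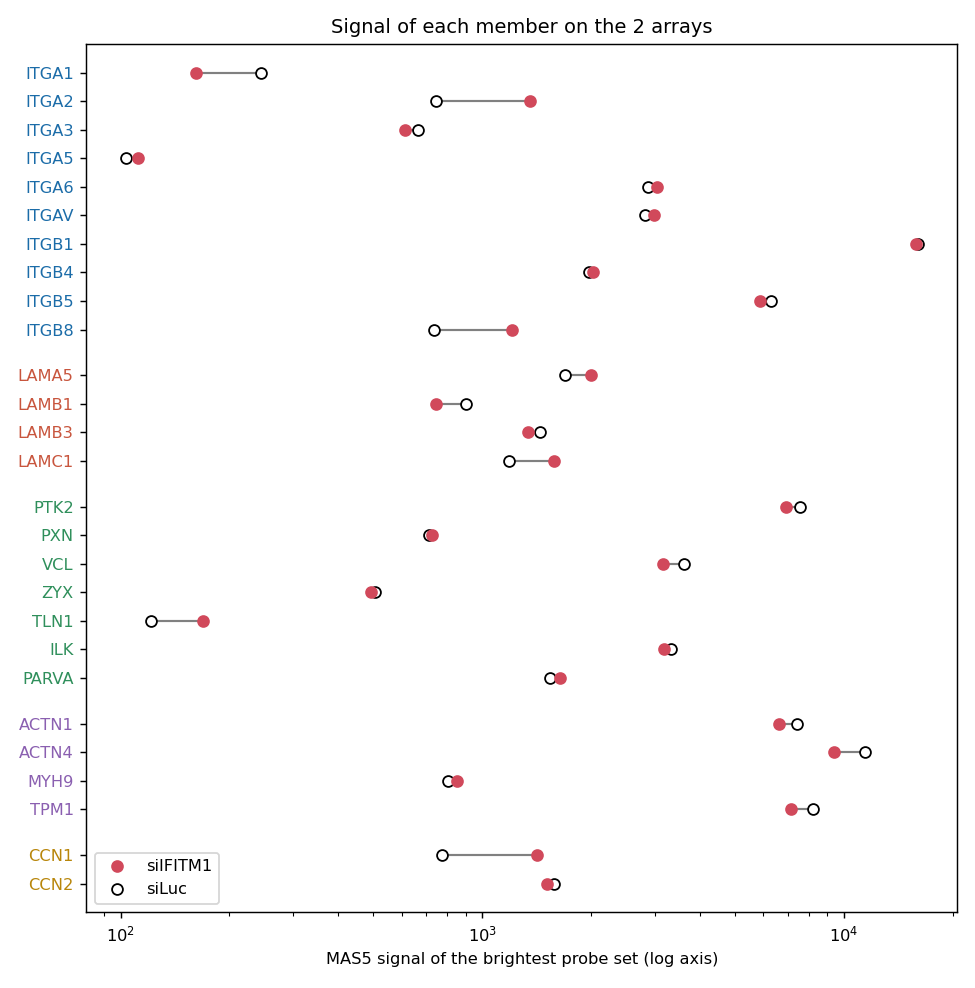
MAS5 signals of the brightest probe set of the 27 measured genes on a log axis, with filled points for the siIFITM1 array and open points for the siLuc array, 1 array each. The points lie far apart for ITGA2, ITGB8 and CCN1, where siIFITM1 is to the right, and for ITGA1, where it is to the left, and nearly coincide for ITGB1 at 15890 and 16036.

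Among the integrin alpha chains, the pair of collagen receptor genes differed most between the arrays, and in opposite directions. ITGA2, whose product pairs with the beta chain ITGB1 to bind collagen, had a signal of 1357 with siIFITM1 and 747 with siLuc, a log2 ratio of 0.86. Its other probe set was also higher, at 358 with siIFITM1 and 270 with siLuc (0.41), so the sizes of the 2 differed by 0.45 and their directions were the same. ITGA1, which encodes the other collagen-binding alpha chain listed, had 162 with siIFITM1 and 244 with siLuc (-0.60), which is over 1 SD (0.496) but within 2 SD (0.992) among dimmer probe sets of 1 gene. Both remaining ITGA1 probe sets were below the filter, at -0.71 and -0.13. ITGA1 was under 1.5-fold with median centring or quantile normalization of the arrays, a loess trend subtracted or a pseudocount of 32, with ratios no closer to 0 than -0.51.

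In the RefSeq gene table ITGA1 and ITGA2 are neighbours on chromosome 5, with 0 other protein-coding genes between them. The 250 bases before the annotated start of each gene are printed because the ratios of these neighbours point in opposite directions. The capitals mark GGGCGG, the GC box that Sp-family factors bind, searched on both strands. The sequences are RefSeq's, build GRCh38.p14, from chr5:52787666-52787915 and chr5:52989102-52989351, both on the plus strand.
ITGA1: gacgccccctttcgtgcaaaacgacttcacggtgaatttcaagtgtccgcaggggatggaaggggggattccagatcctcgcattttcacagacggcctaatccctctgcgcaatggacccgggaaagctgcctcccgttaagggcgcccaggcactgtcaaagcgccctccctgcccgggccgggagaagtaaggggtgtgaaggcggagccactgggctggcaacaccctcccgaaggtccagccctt
ITGA2: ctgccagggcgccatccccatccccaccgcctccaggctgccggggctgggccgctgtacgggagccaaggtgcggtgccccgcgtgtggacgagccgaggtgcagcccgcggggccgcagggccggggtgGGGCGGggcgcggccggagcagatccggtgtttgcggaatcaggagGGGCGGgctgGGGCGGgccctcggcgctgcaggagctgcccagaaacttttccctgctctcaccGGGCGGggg

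The ITGA2 window held 4 GC boxes, which began 119, 73, 63 and 9 bases before the start, and the ITGA1 window held 0. GGGCGG occurred in 42.3% of the 27305 promoter windows of this length in the table, and in 19 of the 22 measured genes of the list that have a window. It occurred 3 or more times in 14.0% of all windows and in 12 of the 22, among them LAMB1 with 4 and PXN with 8, whose log2 ratios were -0.28 and 0.02. ITGA3, ITGB4, PTK2, PARVA and CCN1 had no window. The windows of the list were also richer in G and C, with a median of 71.4% against 58% over all windows. A match is a string of letters and not a measured binding site.

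The laminin and fibronectin receptor chains were nearly equal on the arrays. ITGA6, which pairs with ITGB1 or with ITGB4 of the hemidesmosome to bind laminin, had 3047 with siIFITM1 and 2871 with siLuc (0.09), and its other probe set was at 0.12. ITGA3, another laminin receptor chain, had 612 with siIFITM1 and 665 with siLuc (-0.12). ITGA5, the fibronectin receptor chain, had 112 with siIFITM1 and 104 with siLuc (0.11). ITGAV, which pairs with several beta chains including ITGB5 and ITGB8, had 2988 with siIFITM1 and 2824 with siLuc (0.08). These 4 ratios were within the SD between probe sets of 1 gene of their class.

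Among the beta chains, ITGB8 stood apart from the other 3 measured. ITGB8, which with ITGAV binds latent TGF-beta, had 1207 with siIFITM1 and 737 with siLuc, a log2 ratio of 0.71. A second ITGB8 probe set just past the filter ran the other way, at 47.1 with siIFITM1 and 76.5 with siLuc (-0.70), and averaging the pair gave 0.01. The second set has an ID that marks shared probes, and its siIFITM1 signal is below the filter value of 57.4. The ITGB8 ratio therefore rests on the brightest probe set.

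ITGB1, the common partner of most alpha chains listed, had 15890 with siIFITM1 and 16036 with siLuc (-0.01). Its other probe sets past the filter were at 0.18 and -0.03, while 4 that failed the filter ran from -3.73 to 2.18. ITGB4 had 2023 with siIFITM1 and 1970 with siLuc (0.04), with its other probe sets past the filter at -0.36 and 0.30. ITGB5, which with ITGAV binds vitronectin, had 5860 with siIFITM1 and 6278 with siLuc (-0.10), and its 4 probe sets ranged from -0.21 to 0.27. The signs of ITGB1, ITGB4 and ITGB5 depended on the probe set, and that of ITGB1 also on the scaling of the arrays. In all, 6 of the 10 measured integrin genes were above 0 and the median was 0.06.

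The measured laminin chains split, with LAMC1 and LAMA5 higher and LAMB1 and LAMB3 lower, a median of 0.06. Without probe sets whose IDs mark shared probes, which leaves out LAMA5, the median of the remaining 3 was -0.11. LAMC1, the gamma chain common to many laminins, had 1578 with siIFITM1 and 1190 with siLuc (0.41). Its other probe set gave nearly the same ratio, 0.39, from 624 with siIFITM1 and 476 with siLuc. LAMA5, an alpha chain of epithelial basement membranes, had 1995 with siIFITM1 and 1698 with siLuc (0.23).

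LAMB1, a beta chain that assembles with LAMA5 and LAMC1, had 748 with siIFITM1 and 905 with siLuc (-0.28), and its other probe set was at -0.21. The 3 chains of that trimer thus did not share a direction, and neither LAMB1 nor LAMC1 changed sign between probe sets. LAMB3, the beta chain of the laminin that anchors epithelia through hemidesmosomes, had 1339 with siIFITM1 and 1442 with siLuc (-0.11). Of the 4 ratios only that of LAMC1 was over 2 SD (0.386) between brighter probe sets of 1 gene. Among the 24 brighter genes of the list 4 were higher by more than that, LAMC1, ITGA2, ITGB8 and CCN1, and 0 were lower. Over all brighter genes 6.42% were higher and 6.34% were lower by as much.

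**Figure D2:**
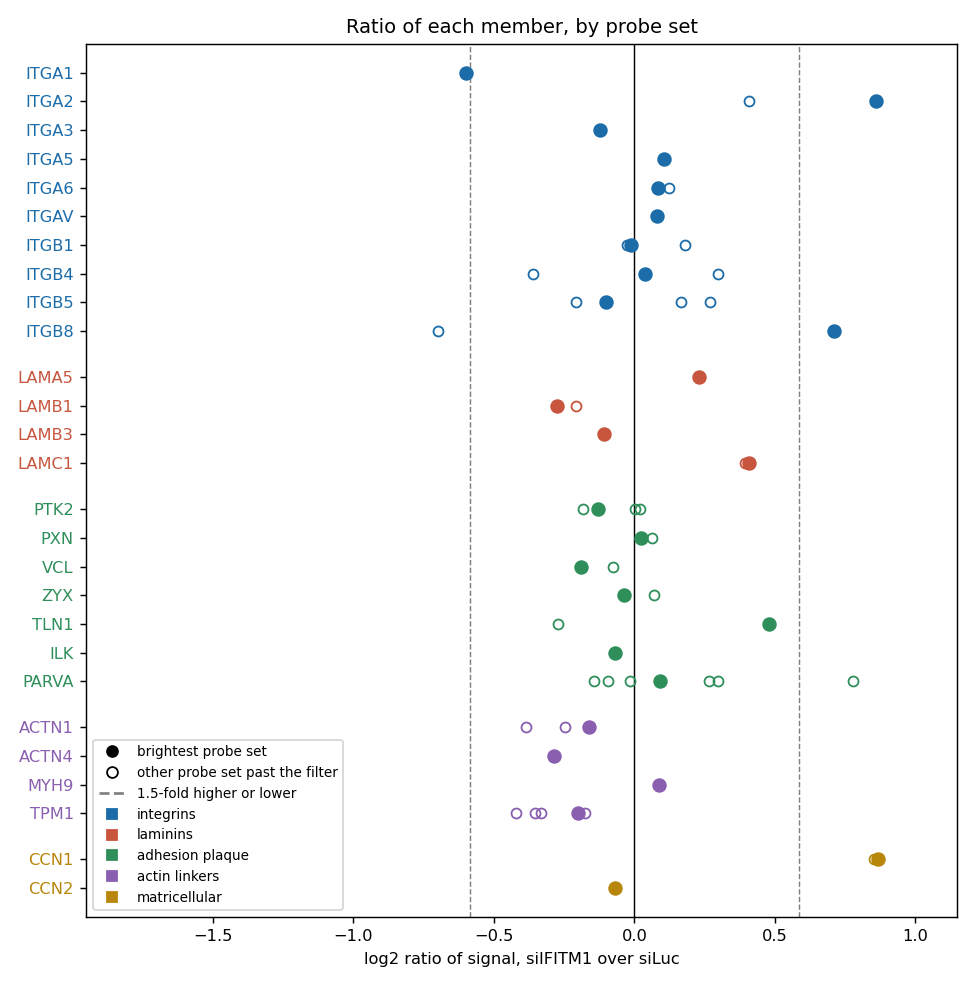
Log2 ratio of siIFITM1 over siLuc for each measured gene, with a filled point for its brightest probe set, open points for its other probe sets past the filter, and dashed lines at 1.5-fold. Both probe sets of CCN1, at 0.87 and 0.85, and both of LAMC1 nearly coincide, while those of ITGB8 lie on opposite sides of 0.

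In the adhesion plaque 6 of 7 genes were within 0.2 of 0 on the log2 scale, and the plaque median was -0.04. Of all genes past the filter 6273 of 12225 were as close to 0, and of the brighter ones 4839 of 7793. The plaque median turned to 0.017 with the probe sets of each gene averaged. It was -0.13 without probe sets whose IDs end in _s_at or _x_at. PTK2, which encodes focal adhesion kinase, had 6941 with siIFITM1 and 7589 with siLuc (-0.13), with its other 3 probe sets between -0.18 and 0.02. PXN, the scaffold paxillin, had 725 with siIFITM1 and 713 with siLuc (0.02). VCL, which encodes vinculin, a link from talin to actin, had 3169 with siIFITM1 and 3616 with siLuc (-0.19). These 3 ratios were below 1 SD between probe sets of 1 gene.

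ZYX, a LIM domain protein of actin-bound adhesions, had 494 with siIFITM1 and 506 with siLuc (-0.04). ILK, a pseudokinase that binds beta integrin tails, had 3184 with siIFITM1 and 3339 with siLuc (-0.07). PARVA, the parvin that joins ILK to actin, had 1642 with siIFITM1 and 1543 with siLuc (0.09). PARVA was read by 7 probe sets past the filter, 4 above and 3 below 0, from -0.14 to 0.78, the last at a signal of 93.0 with siIFITM1 and 54.2 with siLuc. TLN1, which encodes the talin that activates integrins, was the one plaque gene with a larger ratio, at 170 with siIFITM1 and 122 with siLuc (0.48). TLN1 is dimmer, and its ratio was below 1 SD (0.496) between dimmer probe sets of 1 gene. A second TLN1 probe set was at 105 with siIFITM1 and 126 with siLuc (-0.27), so its direction differed between probe sets.

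The actin linkers were lower in 3 of 4 measured cases, by small amounts that were shared by nearly all their probe sets. Over all genes past the filter 52.6% were below 0, and of the brighter ones 49.5%, so a count over 4 genes says little about direction. ACTN4, an actin crosslinking alpha-actinin, had 9421 with siIFITM1 and 11474 with siLuc (-0.28). ACTN1, its close relative, had 6642 with siIFITM1 and 7436 with siLuc (-0.16), and its 3 probe sets past the filter ranged from -0.39 to -0.16. TPM1, a tropomyosin that coats actin filaments, had 7154 with siIFITM1 and 8221 with siLuc (-0.20), with 5 of 5 probe sets past the filter below 0, between -0.42 and -0.18. MYH9, the heavy chain of a non-muscle myosin, had 855 with siIFITM1 and 804 with siLuc (0.09). The ratios of ACTN4 and TPM1 exceeded 1 SD between brighter probe sets of 1 gene (0.193), and none of the 4 exceeded 2 SD (0.386). The median of the 4 genes was -0.18, and -0.28 with the probe sets of each gene averaged. The probe sets of 1 gene can share probes and transcripts and are not independent samples.

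CCN1 and CCN2 encode secreted matricellular proteins that bind integrins, and both are known targets of the YAP coactivator and its TEAD partners. They differed here. CCN1 had 1416 with siIFITM1 and 777 with siLuc (0.87), and its other probe set had 1014 with siIFITM1 and 561 with siLuc (0.85). CCN2 had 1512 with siIFITM1 and 1585 with siLuc (-0.07), read by 1 probe set. CCN1 had the highest ratio of the 27 genes, with ITGA2 next to it at 0.86.

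The 250 bases before the annotated start of CCN2 are printed because they hold repeats of the TEAD-bound motif in a gene whose signal was nearly the same on both arrays. The window is chr6:131951373-131951622 of GRCh38.p14, minus strand, from RefSeq, and the capitals mark GGAATG, searched on both strands.
CCN2: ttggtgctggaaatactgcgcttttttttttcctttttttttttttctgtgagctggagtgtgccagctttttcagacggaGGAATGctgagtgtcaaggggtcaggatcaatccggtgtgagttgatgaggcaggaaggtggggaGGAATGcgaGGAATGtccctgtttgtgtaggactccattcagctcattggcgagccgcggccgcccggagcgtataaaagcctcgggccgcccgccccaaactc

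The motif occurred 3 times in the CCN2 window, at 169, 104 and 95 bases before the start. At least 1 match was present in 11.9% of the 27305 promoter windows, and 3 or more in 0.0952%. Those windows again include genes that were not measured or did not pass the filter. Of the 22 windows of measured genes in the list, 5 had a match, those of CCN2, ITGA5, ITGB1, VCL and MYH9. The other 4 genes had 1 each and log2 ratios between -0.19 and 0.11. GGAATG and GGGCGG matches overlapped in 0 of the 22 windows and in only 0.143% of all windows.

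**Figure D3:**
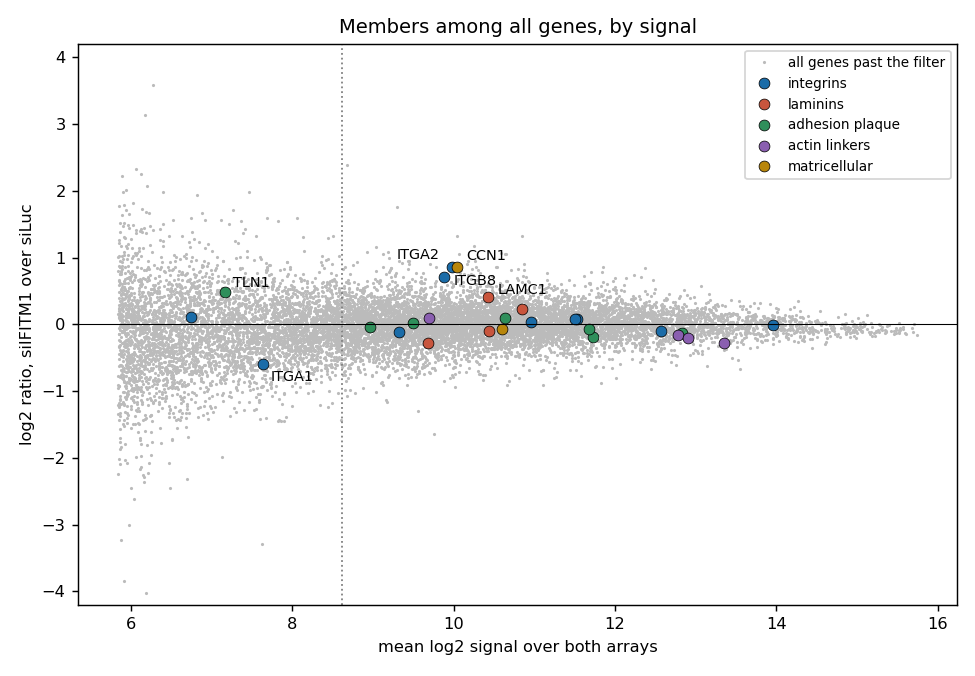
Log2 ratio against mean log2 signal for the 12225 genes past the filter (grey) and the 27 genes of the list (coloured by role). The dotted line marks the 75th percentile of signal. ITGA2, ITGB8 and CCN1 lie high among the genes of similar signal, and the remaining brighter genes of the list lie within the grey band.

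Probe sets of a gene agreed in sign about as often in the list as elsewhere. Of 17 genes with several probe sets past the filter, 9 (52.9%) had all of them on 1 side of 0, against 48.4% of 6087 genes over the array. The 9 were ITGA2, ITGA6, LAMB1, LAMC1, PXN, VCL, ACTN1, TPM1 and CCN1.

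Other genes of the same structures were also mixed. Of 15 other integrin genes 6 passed the filter, 3 above and 3 below 0. The platelet integrin gene ITGA2B had 107 with siIFITM1 and 31.1 with siLuc, the second below the filter value, and the epithelial-binding ITGAE of mucosal lymphocytes had 4024 with siIFITM1 and 4681 with siLuc (-0.22). Of 13 further laminin and basement membrane genes 6 were above 0, with a median of -0.05. At 1.5-fold 2 of the 13 were lower, both of them dimmer. Among dimmer genes 17.1% were at least 1.5-fold lower, against 7.34% of all genes past the filter. The matrix gene TNC was the lowest at 66.8 with siIFITM1 and 127 with siLuc (-0.93). The laminin gene LAMC3 had 44.7 with siIFITM1, below the filter value, and 78.4 with siLuc (-0.81). Thrombospondin gene THBS1 had the highest ratio of the 13, 0.30, with 3 of its probe sets past the filter between 0.30 and 0.44.

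Of 37 other adhesion plaque genes 22 were above 0, with a median of 0.06, and 34 were under 1.5-fold in either direction. The other 3 were all lower. Over all genes past the filter 7.34% were at least 1.5-fold lower and 4.18% higher, and among dimmer genes 17.1% were lower. The tensin gene TNS1 was dimmer, at 138 with siIFITM1 and 374 with siLuc (-1.44), but at -0.11 in its other probe set. Another tensin gene, TNS2, was also dimmer, at 131 with siIFITM1 and 222 with siLuc (-0.76). NEDD9, a scaffold gene named here after its values were seen because it completes the 3, was brighter, at 749 with siIFITM1 and 1305 with siLuc (-0.80), with its 4 probe sets from -1.18 to 0.42. SORBS3 had the highest ratio of the 37. It was dimmer, at 123 with siIFITM1 and 83.4 with siLuc (0.56), and its other probe set past the filter was at 0.74. The scaffold genes BCAR1 and KANK2, both brighter, were at 0.44 and 0.46. Of 15 other actin linker genes 9 were above 0, with a median of 0.02, while 6 were below 0. Among those 6 were 3 genes named after their values were seen, the tropomyosin genes TPM2 (-0.37) and TPM4 (-0.30), both brighter, and TAGLN (-0.86), each with at least 1 probe set above 0. The calponin gene CNN2 was at -0.36 and the membrane linker gene MSN at 0.16.

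In the YAP and SRF pathway list 11 of 16 genes past the filter were above 0, with a median of 0.14. Over all genes past the filter 47.4% were above 0. The YAP target AMOTL2 had 1618 with siIFITM1 and 1263 with siLuc (0.36), the kinase gene LATS2 was at 0.30 with its 3 probe sets between 0.30 and 0.49, and the receptor kinase gene AXL was at 0.26. CCN3 and CCN6, relatives of CCN1, were dimmer and at -0.40 and -0.49, and MRTFB was brighter and at -0.25. TEAD2 (-0.50) and CRIM1 (-0.45), named after their values were seen, were dimmer, each with at least 1 probe set above 0. Of the 16 genes 15 were under 1.5-fold in either direction. The other, LATS1, was named after its values were seen. LATS1 was brighter and at 0.66, but at -0.87 in its other probe set past the filter. Among all brighter genes 1.86% were at least 1.5-fold higher.

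**Figure D4:**
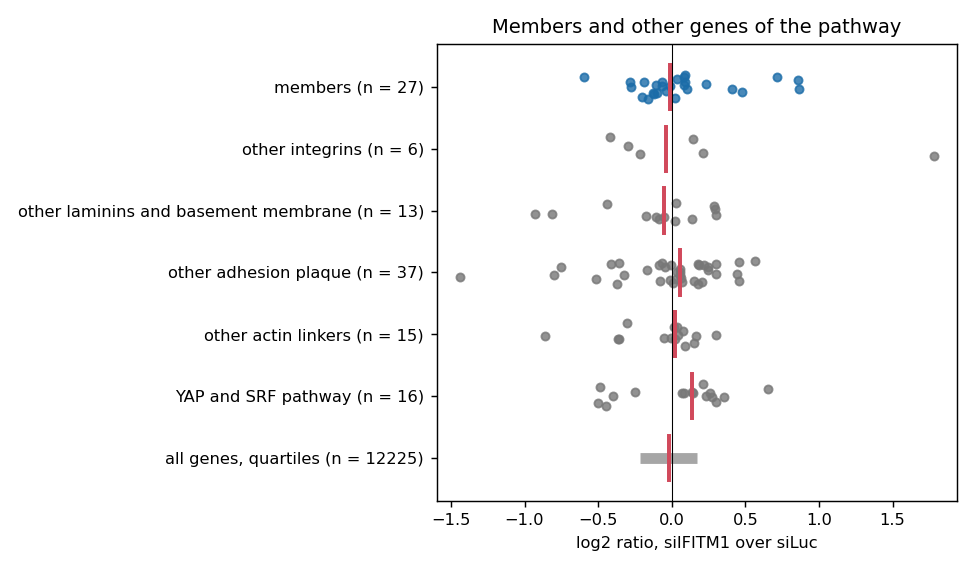
Log2 ratios of the 27 genes of the list and of the genes past the filter in 5 lists of related genes, each point a gene and each red line a median, above the quartiles of all 12225 genes. The medians of the 6 lists lie between -0.05 and 0.14, and that of all genes is -0.018.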

How the data were processed

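RNA of 2 HT-29 samples was amplified to biotin-labelled cRNA and read on 1 single-colour array each, per the labels' protocols. The deposited values are intensities, MAS5 signals on a linear scale per the submitters' processing notes, with a mean of 500.1 on each array after trimming 2% at each end. No source used here gives the version of MAS5, and detection calls were not used. Depth does not apply to arrays, and their number limits the precision.

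The probe table named 1 gene for 41091 of 54613 probe sets that are not controls, and 41037 were given current symbols by matching Entrez identifiers to a GRCh38.p14 RefSeq gene table. Deposited signals were log2 transformed with no further scaling. The probe set with the highest mean log2 signal represented a gene, and a gene passed the filter where this mean reached the median taken across every non-control probe set. The 18 hybridisation controls had log2 ratios from -0.13 to 0.05. As a check of RNA quality, 3' over 5' signal had a log2 value of -0.11 with siIFITM1 and -0.13 with siLuc for GAPDH, and 0.13 and 0.12 for beta-actin.

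Differences were described by size, with shares over all genes past the filter as background. All listed genes were named. From 5 lists of related genes, the rule took up to 3 highest and 3 lowest ratios among genes whose probe sets past the filter shared a sign, and some of these are given in the text. The listed genes and all lists were chosen with earlier results of these data known. Motifs and promoter windows were chosen after the ratios were seen. The scripts were tested on simulated data with planted shifts larger than the ratio of any listed gene's brightest probe set. Smaller shifts were not simulated. Python 3.11.15, numpy 2.4.6, pandas 2.3.3, scipy 1.17.1, statsmodels 0.14.6 and matplotlib 3.10.9 were used.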

Additional observations from a re-analysis of the deposited data

How the results depend on the processing

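The alternatives were median centring, quantile normalization, a loess trend subtracted (span 0.3), a pseudocount of 32, a filter at the 75th percentile or none, averaging a gene's probe sets, leaving out those with an ID ending in _x_at or _s_at, signals below the filter value raised to it, and folds of 1.5 and 3. No gene of the list was 2-fold or 3-fold apart in any of them. At 1.5-fold 3 were higher and 1, ITGA1, was lower. The higher count was 2, without ITGB8, when probe sets were averaged. The lower count was 0 with median centring, quantile normalization, the loess trend and the pseudocount. It was also 0 with the stricter filter, but there only because ITGA1, being dimmer, does not pass it. Without probe sets that share probes, the median of the list was -0.068, of integrins 0.14, of laminins -0.11 and of the adhesion plaque -0.13. With probe sets averaged the plaque median was 0.017 and that of actin linkers -0.28. The medians without IDs ending in _x_at or _s_at rest on fewer genes, 21 in all, while those with probe sets averaged cover all 27. Of the 27 genes 21 kept the sign of their ratio under every alternative that gave a value. The others were ITGB1, ITGB4, ITGB5, ZYX, TLN1 and PARVA. ITGB8 went as low as 0.01 and ITGA2 as low as 0.63, both as means over probe sets, while CCN1 stayed between 0.84 and 0.90. No paired analysis was possible because each siRNA had 1 array, and no replicate could be left out. ITGA1, ITGA5 and TLN1 were dimmer, where probe sets of 1 gene differ more, with an SD of 0.496 against 0.193.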
